A study of Mus musculus with 11 samples.

Results

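The genes of the DNA replication machinery were read in RNA-seq libraries of LSKs from p53+/+, p53R248W/+, and p53-/- mice. The 48 genes were taken by symbol from a list of licensing, helicase, polymerase, clamp, nucleotide supply, and E2F genes. All 48 were among the 12647 genes of the count table, and all 48 were tested. LSKs are the lineage-negative fraction of bone marrow that carries Sca1 and Kit, and they include HSCs and multipotent progenitors. Each genotype had 3 libraries, 9 together. The p53+/+ mice are HUPKI mice, whose p53 gene holds human p53 sequence, and the p53R248W/+ mice carry the R248W substitution on 1 allele of this humanized gene. Both lines were on a C57BL/6 background, and the methods describe the mice as young. The methods do not say whether the p53-/- mice carry the humanized gene. They also do not say that the 3 libraries of a genotype come from separate mice, so p-values measure only the spread between these libraries.

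DNA replication starts at origins bound by the origin recognition complex, where Cdc6 and Cdt1 load the MCM2-7 ring in G1. At the start of S phase, Mcm10, Cdc45, and the GINS complex turn the ring into an active helicase, the polymerases copy the strands on the Pcna clamp, and the fragments of the lagging strand are joined. E2F factors drive the transcription of many of these genes, and most HSCs in the adult bone marrow are outside the cell cycle.

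Between 18021375 and 29750702 reads were counted per library, and each of the 48 genes had at least 197 counts in every library. Values are CPM, the reads of a gene scaled to library size with TMM factors. Trp53 was at 125, 207, and 376 CPM in p53+/+, 219, 240, and 235 CPM in p53R248W/+, and 129, 127, and 112 CPM in p53-/- libraries. The p53+/+ and p53-/- libraries overlapped for Trp53, and the part of the gene that the p53-/- allele lacks is not given in the sources used here, so this count checks no label. Cdkn1a, a direct target of p53, was at 67.0, 44.0, and 43.6 CPM in p53+/+, 52.1, 37.7, and 35.7 CPM in p53R248W/+, and 17.8, 8.27, and 10.9 CPM in p53-/- libraries. It was lower in all 3 p53-/- libraries than in any other, with a log2 fold change of -2.07 ± 0.30 (SE) against p53+/+ (adjusted p = 0.00914, edgeR). The LSK genes Kit and Ly6a (Sca1) were read in every library, as was Cd34, which is among the multipotent progenitor markers below.

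Promoters are shown because the E2F word is a sequence feature that the choice of the 48 genes did not use. In RefSeq promoters (GRCm38.p6, 250 bases before to 50 after the start), 39 of the 48 genes had an entry. An E2F word (TTTCCCGC, TTTCGCGC, TTTGCCGC, or TTTGGCGC, on either strand) was found in 14 of these 39 genes, or 35.9%. It was found in 4.83% of the 9941 tested genes with an entry. A gene counted if any of its promoters held the word. By single promoter, it was found in 14 of the 46 promoters of these genes and in 2.26% of all 32851 promoters. The CCAAT box (CCAAT) was found in 61.5% of the 39 genes and in 42.8% of the tested genes, and the CHR word (TTTGAA) in 15.4% and 14.4%. The 4 promoters below are those with an E2F word and the smallest p in p53-/- against p53+/+, at most 1 per role. Capitals mark the E2F words, and each sequence reads along the gene's own strand.
Orc1 promoter, chr4:108579204-108579503, plus strand: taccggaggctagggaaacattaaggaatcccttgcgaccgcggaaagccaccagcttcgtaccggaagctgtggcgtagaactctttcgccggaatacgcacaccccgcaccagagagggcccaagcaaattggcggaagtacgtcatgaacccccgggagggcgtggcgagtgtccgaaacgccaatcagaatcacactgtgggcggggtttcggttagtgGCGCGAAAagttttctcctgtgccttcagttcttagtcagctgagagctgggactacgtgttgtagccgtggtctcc
Mcm3 promoter, chr1:20820263-20820562, minus strand: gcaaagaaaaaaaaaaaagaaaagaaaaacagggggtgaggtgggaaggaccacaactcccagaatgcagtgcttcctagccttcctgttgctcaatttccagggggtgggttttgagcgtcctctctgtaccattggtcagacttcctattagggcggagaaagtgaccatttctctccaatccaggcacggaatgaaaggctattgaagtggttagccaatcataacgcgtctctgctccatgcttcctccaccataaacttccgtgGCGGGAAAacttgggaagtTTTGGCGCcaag
Pola1 promoter, chrX:93632106-93632405, minus strand: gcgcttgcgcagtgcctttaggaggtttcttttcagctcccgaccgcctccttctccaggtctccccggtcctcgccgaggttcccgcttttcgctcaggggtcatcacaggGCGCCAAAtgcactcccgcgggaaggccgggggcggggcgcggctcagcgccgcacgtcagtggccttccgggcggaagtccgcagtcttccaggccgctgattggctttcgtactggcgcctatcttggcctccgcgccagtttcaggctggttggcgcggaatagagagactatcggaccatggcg
Lig1 promoter, chr7:13278576-13278875, plus strand: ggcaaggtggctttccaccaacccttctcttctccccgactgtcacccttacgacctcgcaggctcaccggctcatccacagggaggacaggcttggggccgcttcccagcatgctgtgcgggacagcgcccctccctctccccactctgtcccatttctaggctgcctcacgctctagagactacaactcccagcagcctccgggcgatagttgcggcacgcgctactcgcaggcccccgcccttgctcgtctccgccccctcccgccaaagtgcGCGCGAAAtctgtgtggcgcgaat
The words lie after the start in Lig1 and Mcm3 and before it in Orc1 and Pola1. A match in these letters is a description and not a measured binding site. The 14 genes with an E2F word had a median log2 fold change of -0.35 in p53-/- against p53+/+, with a range from -1.10 to 0.13. The 25 genes with an entry and no such word had -0.22, with a range from -1.58 to 0.04. Fold changes of the members also went with gene length, as given below. The part of length or of the word in this difference was not tested.

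The first comparison asked how expression of these genes differs between p53-/- and p53+/+ LSKs. Most of the 48 genes were read slightly lower in p53-/- libraries, and 2 passed the test. Lig1, the ligase that seals the fragments of the lagging strand, fell to 46.5% of its p53+/+ level. Rfc1, the large subunit of the loader that places Pcna on DNA, fell to 33.5%. No member passed the test as higher. Ccne2, Pole2, Gins4, and Fen1 had log2 fold changes above 0, at 0.45, 0.13, 0.08, and 0.04.

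At an adjusted p below 0.05, 2 of 48 members were lower, against 2.25% of all 12625 genes tested, and 0 were higher, against 1.25%. The 0 higher members were 0 also at an unadjusted p below 0.05 (10.9% of all genes), by DESeq2, and by limma-voom. At an unadjusted p below 0.05, 14 members were lower, or 29.2%, against 12.5% of all genes. The log2 fold change was below 0 for 44 members, against 50.1% of all genes. The members share libraries and are not independent, so sign counts in each comparison are only descriptions. Within p53+/+ alone, members below the p53+/+ mean ran from 0 in replicate 3 to 37 in replicate 1. The median log2 fold change was -0.27 for the members and -0.00 for all genes tested. Libraries of the genotypes did not overlap for 7 members, or 14.6%, with p53-/- lower, which is close to the 16.0% of all genes, and 0 were higher without overlap, against 15.4%.

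**Figure D1:**
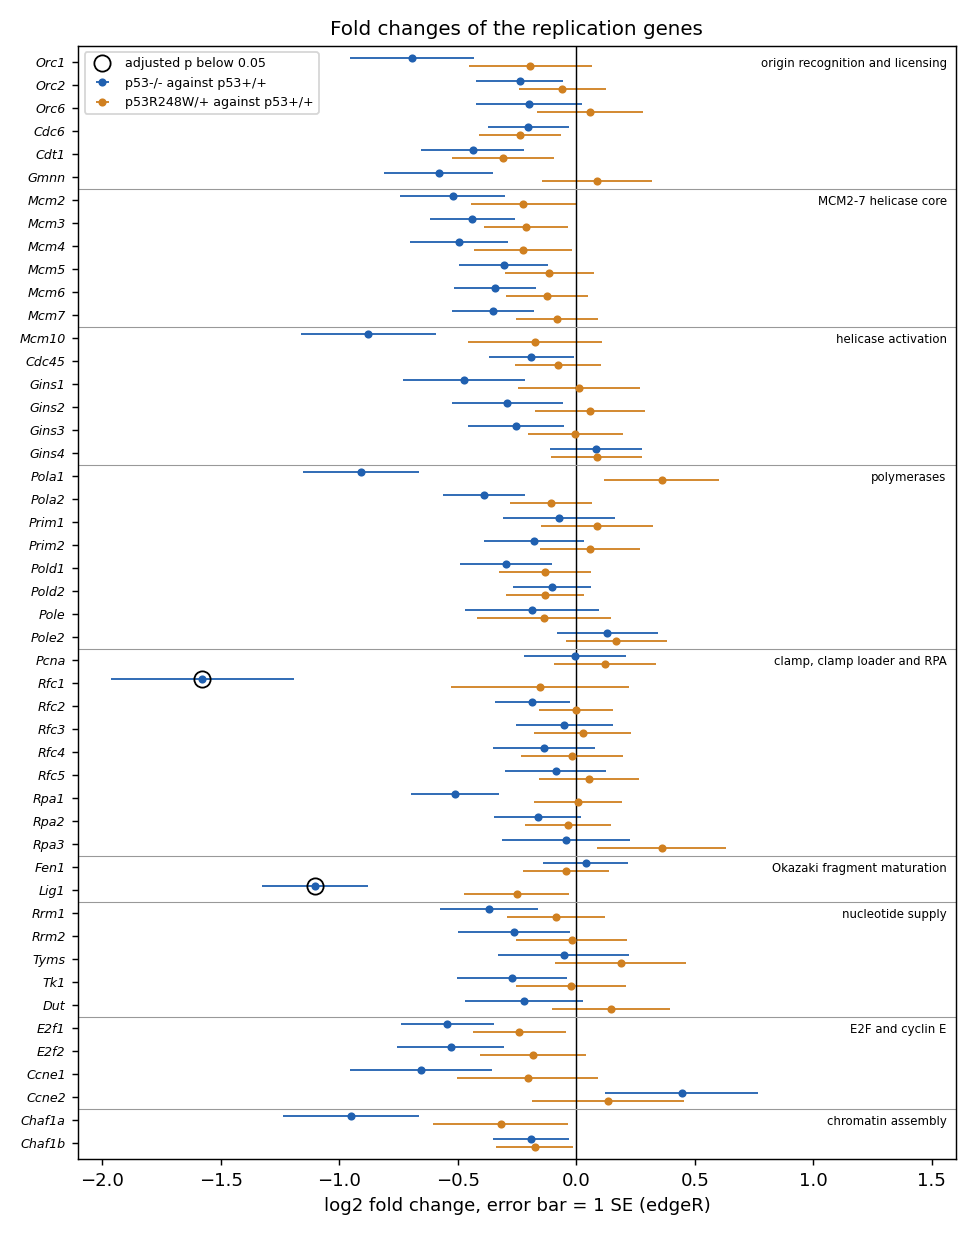
Log2 fold change (x axis, ± 1 SE) of each of the 48 genes (rows, by role) in p53-/- against p53+/+ (blue) and in p53R248W/+ against p53+/+ (orange). Rfc1 at -1.58 and Lig1 at -1.10 are circled as the 2 genes with an adjusted p below 0.05, and 44 of the 48 blue points lie below 0.

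The libraries of a genotype did not rank alike. Among p53+/+ libraries, replicate 3 was the highest for 41 of the 48 members, against 30.8% of all genes, and replicate 1 was the lowest for 28. Among p53-/- libraries, replicate 1 was the highest for 36 members and replicate 2 the lowest for 30. Together the 48 genes took 0.888%, 1.04%, and 1.14% of the counts in p53+/+, 0.960%, 0.995%, and 0.901% in p53R248W/+, and 0.916%, 0.703%, and 0.788% in p53-/- libraries. The highest p53-/- share was above the lowest p53+/+ share, so the genotypes overlapped in this sum. RNA from a whole sorted population does not tell fewer cells in S phase from less RNA of these genes per cell. Summed CPM of Y-linked genes was 110 in p53+/+ replicate 2, and at most 0.167 in other p53+/+ and all p53-/- libraries. A fit with a covariate for the Y-linked level is given below.

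**Figure D2:**
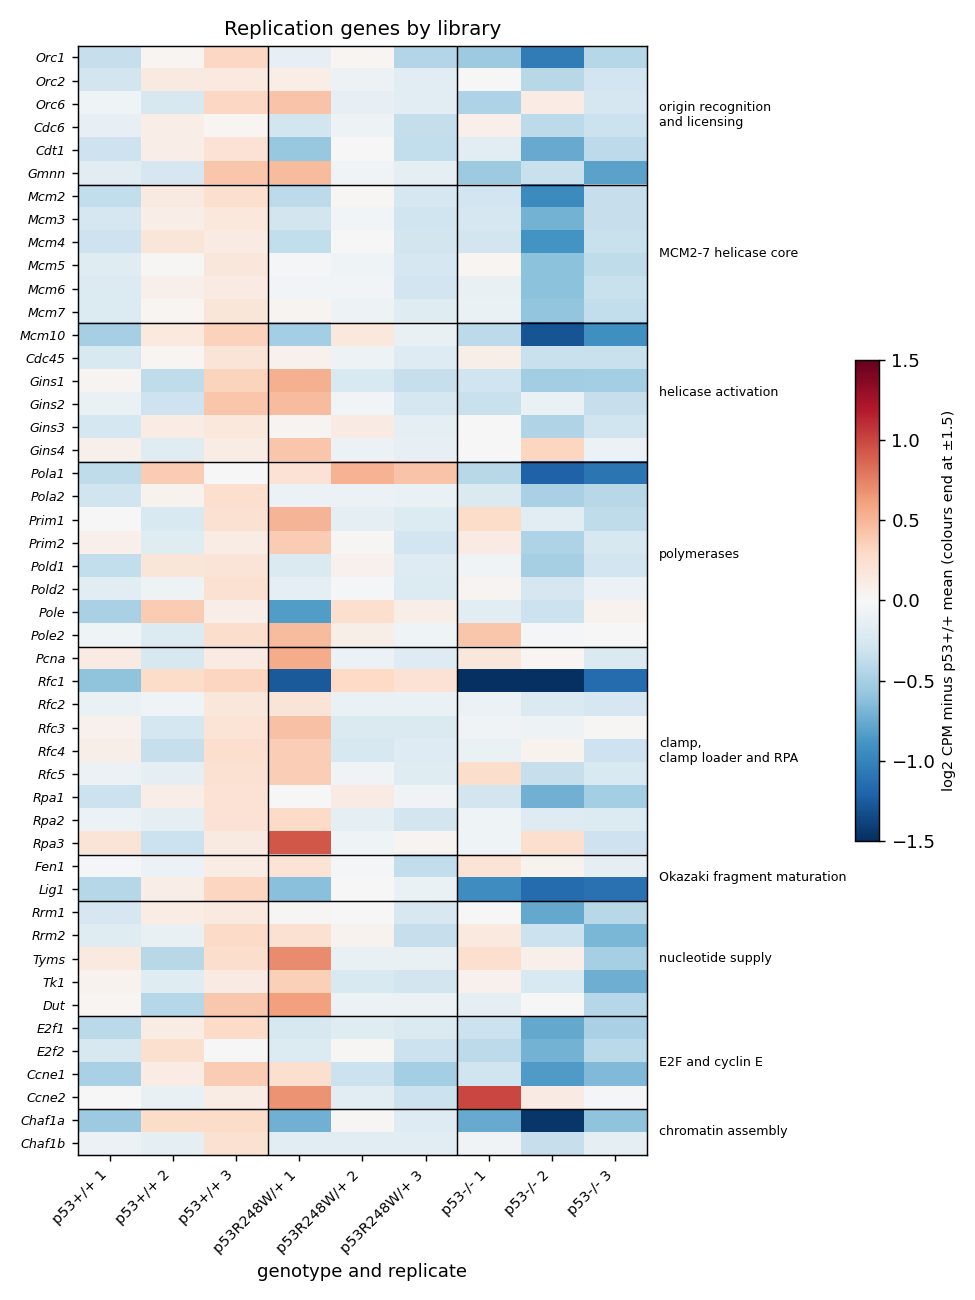
Log2 CPM of each of the 48 genes (rows, by role) in each of the 9 libraries (columns), minus the mean of the p53+/+ libraries, with blue for lower and red for higher. The p53-/- replicate 2 and 3 columns are mostly blue, and so is p53R248W/+ replicate 3. In order of replicate, 37, 23, and 0 genes lay below the p53+/+ mean in p53+/+ libraries. In p53R248W/+ libraries 19, 34, and 44 did, and in p53-/- libraries 31, 40, and 46. Rfc1 and Lig1 are blue in all 3 p53-/- columns, and p53R248W/+ replicate 1 differs in both directions from the other p53R248W/+ columns.

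Licensing genes had log2 fold changes from -0.20 to -0.69, and 0 of 6 passed the test (2 at an unadjusted p below 0.05). Orc1, the large subunit of the origin recognition complex, was at 15.2, 19.9, and 24.3 CPM in p53+/+, 17.9, 19.8, and 14.3 CPM in p53R248W/+, and 13.2, 9.17, and 14.4 CPM in p53-/- libraries. The 3 p53-/- libraries lay below the 3 p53+/+ libraries, with a log2 fold change of -0.69 ± 0.26 (adjusted p = 0.142). Gmnn, which holds back Cdt1 after S phase has begun, was at 88.9, 83.9, and 133 CPM in p53+/+ and 68.3, 79.3, and 56.9 CPM in p53-/- libraries. These also did not overlap (-0.58 ± 0.23, adjusted p = 0.161). Orc2, Orc6, Cdc6, and Cdt1 overlapped between the genotypes, with log2 fold changes of -0.24, -0.20, -0.20, and -0.44.

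The 6 genes of the MCM2-7 ring, the core of the replicative helicase, lay close together. Their log2 fold changes ran from -0.31 (Mcm5) to -0.52 (Mcm2), 0 of 6 passed the test, and 3 had an unadjusted p below 0.05. Mcm3 was at 629, 808, and 836 CPM in p53+/+, 621, 732, and 610 CPM in p53R248W/+, and 629, 459, and 589 CPM in p53-/- libraries. The p53+/+ replicate 1 and p53-/- replicate 1 libraries held nearly the same level, and the log2 fold change was -0.44 ± 0.18 (adjusted p = 0.168). The libraries of the genotypes overlapped for each of the 6 genes.

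Among the genes that activate the helicase, 0 of 6 passed the test and 1 had an unadjusted p below 0.05. Mcm10, which helps to switch the loaded ring on, was at 35.8, 56.4, and 64.6 CPM in p53+/+, 35.6, 56.5, and 47.0 CPM in p53R248W/+, and 38.4, 20.3, and 26.7 CPM in p53-/- libraries. The genotypes overlapped through p53+/+ replicate 1 and p53-/- replicate 1, with a log2 fold change of -0.88 ± 0.28 (adjusted p = 0.0965). The 4 GINS subunits differed in sign. Gins1, Gins2, and Gins3 had log2 fold changes of -0.47, -0.29, and -0.25, and Gins4 of 0.08, the last with a change of sign (-0.05) without p53-/- replicate 2.

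Of the 8 polymerase and primase genes, 0 passed the test and 2 had an unadjusted p below 0.05. Pola1, the catalytic subunit of polymerase alpha, which lays down the first DNA on each primer, was at 65.1, 111, and 85.2 CPM in p53+/+, 98.7, 122, and 114 CPM in p53R248W/+, and 63.4, 36.4, and 39.4 CPM in p53-/- libraries. The p53-/- libraries lay below all others, and the log2 fold change against p53+/+ was -0.91 ± 0.25 (adjusted p = 0.0604). Its partner Pola2 had -0.39 ± 0.17. The primase genes Prim1 and Prim2 had -0.07 and -0.18, the polymerase delta genes Pold1 and Pold2 -0.30 and -0.10, and the polymerase epsilon genes Pole and Pole2 -0.19 and 0.13 (Pole2 -0.02 without p53-/- replicate 1), with overlap between the genotypes for each.

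Of the 9 clamp, clamp loader, and RPA genes, 1 passed the test. Rfc1 was at 76.6, 142, and 147 CPM in p53+/+, 48.5, 144, and 136 CPM in p53R248W/+, and 28.9, 41.2, and 52.1 CPM in p53-/- libraries. The 3 p53-/- libraries lay below the 3 p53+/+ libraries, but p53R248W/+ replicate 1 lay among them. The log2 fold change was -1.58 ± 0.39 (adjusted p = 0.0483). The gene lies at chr5:65261850-65335670 on the minus strand (GENCODE M21, GRCm38). The small loader subunits Rfc2, Rfc3, Rfc4, and Rfc5 had log2 fold changes of -0.18, -0.05, -0.14, and -0.09. Rpa1, the large subunit of the protein that coats single-stranded DNA, had -0.51 ± 0.19 (adjusted p = 0.129), while Rpa2 and Rpa3 had -0.16 and -0.04. Pcna, the clamp itself, was at 330, 257, and 331 CPM in p53+/+ and 343, 312, and 262 CPM in p53-/- libraries, a log2 fold change of -0.00 ± 0.22.

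Lig1 and Fen1, the genes that finish the fragments of the lagging strand, differed from each other. Lig1 was at 165, 239, and 278 CPM in p53+/+, 144, 222, and 208 CPM in p53R248W/+, and 116, 99.8, and 102 CPM in p53-/- libraries. Every p53-/- library lay below every other library, with a log2 fold change of -1.10 ± 0.22 (adjusted p = 0.0274). Lig1 lies at chr7:13277283-13311433 on the plus strand and shares exon bases with Zswim9 on the opposite strand. Fen1, the nuclease that trims the flap before ligation, was at 250, 241, and 277 CPM in p53+/+ and 294, 264, and 233 CPM in p53-/- libraries. These overlapped, with a log2 fold change of 0.04 ± 0.18, or -0.03 without p53-/- replicate 1.

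Nucleotide supply genes had log2 fold changes from -0.05 to -0.37, and 0 of 5 passed the test or had an unadjusted p below 0.05. Rrm1, the large subunit of ribonucleotide reductase, was at 398, 514, and 527 CPM in p53+/+, 480, 473, and 403 CPM in p53R248W/+, and 478, 279, and 356 CPM in p53-/- libraries. These overlapped, with a log2 fold change of -0.37 ± 0.21 (adjusted p = 0.307). Rrm2, Tyms, Tk1, and Dut had -0.26, -0.05, -0.27, and -0.22.

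Among the E2F and cyclin E genes, 0 of 4 passed the test and 2 had an unadjusted p below 0.05. E2f1, an activator of S phase genes, was at 92.7, 133, and 150 CPM in p53+/+, 104, 108, and 105 CPM in p53R248W/+, and 98.4, 72.0, and 87.4 CPM in p53-/- libraries. The genotypes overlapped through p53+/+ replicate 1, and the log2 fold change was -0.54 ± 0.20 (adjusted p = 0.128). E2f2 had -0.53 ± 0.23 without overlap. The cyclin partners of Cdk2 had opposite signs, with -0.65 ± 0.30 for Ccne1 and 0.45 ± 0.32 for Ccne2. The value of Ccne2 was 0.06 without p53-/- replicate 1. It was at 41.6 CPM in p53-/- replicate 1 and between 16.3 and 33.1 CPM in the libraries of p53+/+ and p53R248W/+.

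Chaf1a and Chaf1b encode subunits of the factor that places histones on new DNA, and 0 of 2 passed the test (1 at an unadjusted p below 0.05). Chaf1a was at 90.1, 160, and 160 CPM in p53+/+, 80.3, 133, and 115 CPM in p53R248W/+, and 78.1, 47.6, and 86.7 CPM in p53-/- libraries. The p53-/- libraries lay below the p53+/+ libraries, with a log2 fold change of -0.95 ± 0.29 (adjusted p = 0.0784). Chaf1b had -0.19 ± 0.16.

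**Figure D3:**
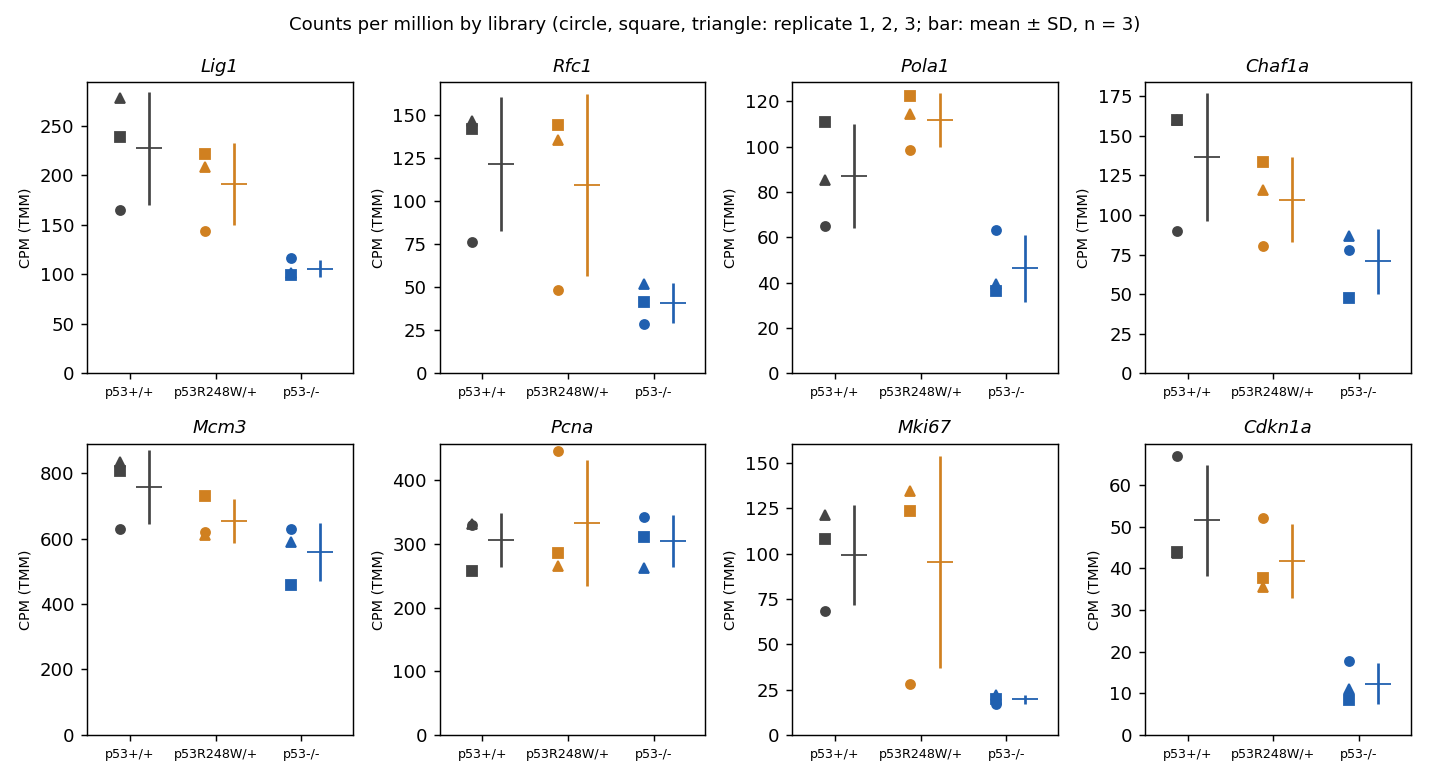
CPM (y axis, from 0) of 6 replication genes and of Mki67 and Cdkn1a in each library, by genotype (x axis), with the mean and SD of 3 libraries beside the points. Lig1, Rfc1, Pola1, and Chaf1a are lower in every p53-/- library than in every p53+/+ library, while Mcm3 and Pcna overlap.

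Leaving out a library ended calls but kept the size of the folds. Without p53+/+ replicate 2 or 3, or without any one p53-/- library, 0 members passed the test in this comparison. Over the 9 fits with a library left out, the log2 fold change ran from -1.29 to -0.93 for Lig1 and from -1.82 to -1.37 for Rfc1. Without p53+/+ replicate 1 or p53R248W/+ replicate 1, 4 members passed, namely Lig1, Rfc1, Pola1, and Chaf1a. DESeq2 called these 4 and Mcm10 lower, and limma-voom called Lig1. Without p53R248W/+ replicate 2 or 3, Lig1 alone passed.

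Fold changes of the members went with gene length. Across the 48 members, the Spearman correlation of the log2 fold change with the deposited gene length was -0.47 in p53-/- against p53+/+ and -0.48 in p53R248W/+ against p53+/+, against -0.13 and -0.22 across all 12625 genes; the members share libraries and are not independent. In p53-/- against p53+/+, the members' median was -0.16 for 19 genes under 2134 bases, -0.35 for 21 genes up to 3743 bases, and -0.45 for 8 longer genes, where all genes had 0.07, 0.02, and -0.12. Replicate 1 of p53R248W/+ was low for long genes in general. Against the mean of the other libraries of its genotype, its median was -0.46 for long and 0.36 for short genes. Rfc1 and Pola1 are among the long genes. With the length trend of each library removed, an alternative chosen after seeing the data, Gmnn, Pola1, Rfc1, Lig1, and Chaf1a were lower, and the members' median was -0.26. The part of length in the calls was not tested further.

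**Figure D4:**
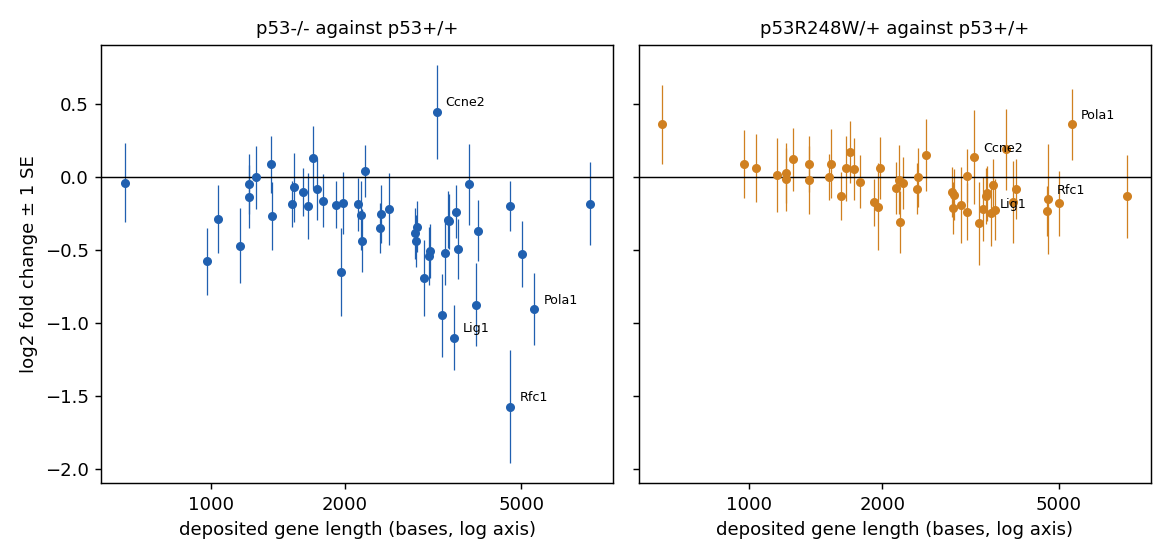
Log2 fold change (y axis, ± 1 SE) of each of the 48 genes against its deposited length in bases (log axis), in p53-/- against p53+/+ (left) and p53R248W/+ against p53+/+ (right). Points fall towards the right in both panels, with Spearman correlations of -0.47 and -0.48, and Rfc1 and Lig1 are the lowest points on the left.

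Other genes of the pathway were also read. Of 93 further replication genes tested, 6 were lower at an adjusted p below 0.05, against 2.25% of all genes. At this threshold 0 were higher, against 1.25% of all genes. At an unadjusted p below 0.05, 6 were higher, against 10.9% of all genes. The median log2 fold change of the 93 genes was -0.20. Clspn, an adaptor of the replication checkpoint, fell by 1.77 on the log2 scale (SE 0.29, adjusted p = 0.0145). Atad5, which unloads Pcna, fell by 1.77 (SE 0.28, adjusted p = 0.0145). Rif1, which controls the timing of origin firing, fell by 1.00 (adjusted p = 0.0449), Tipin of the fork protection complex by 0.77 (0.0452), Mybl2 of the MuvB complex by 1.01 (0.0455), and the histone chaperone gene Supt16 by 1.03 (0.0320), all by edgeR. Each of these 6 calls was lost without p53+/+ replicate 2, p53+/+ replicate 3, or p53-/- replicate 2. Without p53-/- replicate 1, only Atad5 was still called, and without p53-/- replicate 3 only Atad5 and Clspn. Without p53R248W/+ replicate 2 or 3, Rif1, Tipin, and Mybl2 were not called. Of 19 alternatives, Mybl2 was not called in 9, Rif1 and Tipin in 8 each, Supt16 in 5, Clspn in 4, and Atad5 in 3, with the same sign in each. Atad5 was at 25.8, 51.1, and 54.7 CPM in p53+/+, 35.8, 48.1, and 48.7 CPM in p53R248W/+, and 15.5, 10.8, and 12.2 CPM in p53-/- libraries, without overlap between p53-/- and the other genotypes. Of 12 mitotic proliferation markers, 2 were lower (Mki67 and Top2a), all 12 had a log2 fold change below 0, and their median was -0.68. Mki67, which marks cycling cells, was at 68.3, 108, and 121 CPM in p53+/+, 28.2, 124, and 134 CPM in p53R248W/+, and 17.1, 19.7, and 22.0 CPM in p53-/- libraries (-2.34 ± 0.46, adjusted p = 0.0255). The call for Mki67 was lost by limma-voom and without p53+/+ replicate 2 or 3 or any p53-/- library, with log2 fold changes from -2.55 to -2.17 on leaving out a library. The paper measured quiescence by Ki67 and DAPI staining, and states that LSKs and long-term HSCs are less quiescent without p53. Staining of cells and RNA of a sorted population are unlike measures, and the difference between them was not tested.

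Markers of cell identity moved in the same libraries. Beside the counts below, 2.25% of all genes were called lower and 1.25% higher. At an unadjusted p below 0.05 these shares were 12.5% and 10.9% (edgeR). Summed CPM of 12 HSC markers was 814 to 1170 in p53+/+ and 1620 to 1741 in p53-/- libraries, with 1 of 12 called higher (Hlf) and a median log2 fold change of 0.65. Summed CPM of 8 multipotent progenitor markers was 4950 to 5816 and 3632 to 4252, with 1 of 8 called lower (Dntt) and a median of -0.63. For 12 immediate early and heat shock genes it was 1858 to 4403 and 935 to 1356, with 3 of 12 called lower (Fos, Jun, and Hspa1a) and a median of -1.96. For 11 granulocyte and monocyte markers it was 3003 to 6680 and 2210 to 2625, with a median of -0.54. Of these 0 were called by edgeR, and 4 were lower at an unadjusted p below 0.05. For 6 erythroid markers it was 788 to 1001 and 1295 to 1622, with 1 called lower and 1 higher. The erythroid median was -0.58, opposite in sign to the difference of the sums. For 6 T and NK markers it was 430 to 482 and 276 to 353, with 1 called lower and a median of -0.28. For 6 megakaryocyte markers it was 142 to 195 and 123 to 140, and for 8 B lymphoid markers 77.1 to 127 and 91.6 to 106, with 0 called in either (edgeR; 3 and 2 lower at an unadjusted p below 0.05). Their medians were -0.38 and -0.87, so the B lymphoid sums overlapped while its median lay below 0. The part of these markers in the lower replication genes was not tested.

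The second comparison asked whether the R248W allele changes these genes against p53+/+. No member passed the test, with 0 lower and 0 higher at an adjusted p below 0.05 (0.00% and 0.00792% of all genes, edgeR), and DESeq2 and limma-voom also called 0. At an unadjusted p below 0.05, 0 members were lower and 0 higher, against 0.483% and 0.475% of all genes. The log2 fold change was below 0 for 30 of 48 members, against 47.5% of all genes, and the median was -0.05 against 0.01. Members' fold changes ran from -0.32 (Chaf1a) to 0.36 (Pola1), with SE from 0.16 to 0.38, so differences of this size could not be resolved with 3 libraries.

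Pola1, Cdt1, and Cdc6 had the smallest p in this comparison. Pola1 had 0.36 ± 0.24. Cdt1, which brings the MCM2-7 ring to origins, was at 113, 151, and 164 CPM in p53+/+ and 95.1, 141, and 109 CPM in p53R248W/+ libraries, which overlapped (-0.31 ± 0.22). Cdc6 was at 86.9, 102, and 96.7 CPM against 78.5, 89.7, and 74.0 CPM (-0.24 ± 0.17), also with overlap. Chaf1b was the only member without overlap, at 139, 135, and 175 CPM against 132, 133, and 133 CPM, and with DESeq2's size factors it overlapped too. Libraries without overlap made up 2.38% of all genes on the lower side and 2.66% on the higher side. Of the 93 further replication genes, 0 passed the test and 0 had an unadjusted p below 0.05 (edgeR).

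The third comparison set p53R248W/+ against p53-/-, with the p53-/- libraries shared with the first. Pola1 was the only member called. It was higher in p53R248W/+ by 1.27 ± 0.25 on the log2 scale (adjusted p = 0.0234), and every p53R248W/+ library lay above every p53-/- library. Members called higher were 1 of 48, against 2.34% of all genes, and called lower 0, against 1.10% (edgeR; 0 lower also at an unadjusted p below 0.05, by DESeq2, and by limma-voom). At an unadjusted p below 0.05, 7 members were higher, against 11.6% of all genes, and 0 were lower, against 9.47%. The median was 0.24 for the members and 0.02 for all genes, and 4 of 48 members were below 0, against 48.3% of all genes. Without overlap, 7 members were higher, or 14.6%, against 12.1%, and 0 were lower, against 12.0%. Lig1 had 0.85 ± 0.22 (adjusted p = 0.0582) and Rfc1 1.42 ± 0.39 (adjusted p = 0.0627). The call for Pola1 was lost without p53R248W/+ replicate 2 or 3 and without p53-/- replicate 2 or 3, which left 0 members called. Its log2 fold change stayed between 1.12 and 1.54 over the 9 fits with a library left out.

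Pola1 lies on the X chromosome, at chrX:93304767-93632155 on the minus strand, and Y-linked genes were not read alike in the libraries. Their summed CPM was 110 in p53+/+ replicate 2, 69.8 in p53R248W/+ replicate 2, and 184 in p53R248W/+ replicate 3, and at most 0.216 in the other 6 libraries, among them all 3 p53-/- libraries. The highest Pola1 level of p53+/+ (111 CPM) and the 2 highest of p53R248W/+ (122 and 114 CPM) were in the 3 libraries with Y-linked reads. The gene of X inactivation was at 65.0, 149, and 6.26 CPM in these libraries and from 116 to 283 CPM in the others. These 3 libraries also had the highest slopes of log2 CPM on gene length, at 0.153, 0.0884, and 0.102 per doubling. Pola1, of 5347 bases, is among the long genes. The part of sex-linked reads or of length in its levels was not tested. With a covariate for the Y-linked level, Pola1 had 1.00 with an adjusted p of 0.0680 against p53-/-, while Gmnn and Gins1 were called higher. Lig1 and Rfc1 were still called lower in p53-/- against p53+/+ in that fit, with adjusted p of 0.0256 and 0.0446.

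Of the 93 further replication genes, 5 were higher in p53R248W/+ than in p53-/- libraries, against 2.34% of all genes. Only 1 was lower, against 1.10% of all genes. Atad5 was higher by 1.79 on the log2 scale (adjusted p = 0.00958), Clspn by 1.54 (0.0212), Supt16 by 1.19 (0.0203), Rif1 by 1.06 (0.0384), and Tipin by 0.83 (0.0372). Chtf8, a part of the alternative clamp loader, was lower, at 54.9, 63.6, and 49.4 CPM in p53R248W/+ and 81.9, 186, and 179 CPM in p53-/- libraries (-1.41, adjusted p = 0.0281, edgeR). Of 19 alternatives, Rif1 was not called in 7, Clspn in 6, Supt16 and Chtf8 in 5 each, and Atad5 in 1, with the same sign in each. Without p53-/- replicate 2 none of these 5 genes was called, and only Atad5 was still called without p53R248W/+ replicate 2, p53R248W/+ replicate 3, or p53-/- replicate 3, or with the Y-linked covariate. Without p53-/- replicate 1, Rif1 and Clspn were not called. The call for Tipin was not run under the alternatives.

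Levels per length, as CPM per kb, differed widely between subunits of the same complex. In p53+/+ libraries, Mcm6 had the highest level of the MCM2-7 ring with 391 ± 47.3 CPM per kb (SD, n = 3) and Mcm4 the lowest with 103 ± 18.1, a ratio of 3.80. Orc1 was at 6.57 ± 1.52, Orc2 at 18.5 ± 2.91, and Orc6 at 49.3 ± 9.84 CPM per kb. In the clamp loader, Rfc2 was at 288 ± 30.4 and Rfc1 at 25.8 ± 8.28 CPM per kb, the latter falling to 8.64 ± 2.45 in p53-/- libraries. The RPA subunits were closer, from 81.1 ± 15.3 (Rpa1) to 128 ± 17.6 (Rpa2). The catalytic subunits of polymerase alpha and epsilon, Pola1 and Pole, stood at 16.3 ± 4.27 and 11.3 ± 3.27, below their partners Pola2 (57.0 ± 10.9) and Pole2 (23.7 ± 4.09). E2f2 was the lowest of the 48 genes, with 3.69 ± 0.635 CPM per kb. Levels per length depend on the deposited gene lengths, and the libraries were not read evenly along length.

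**Figure D5:**
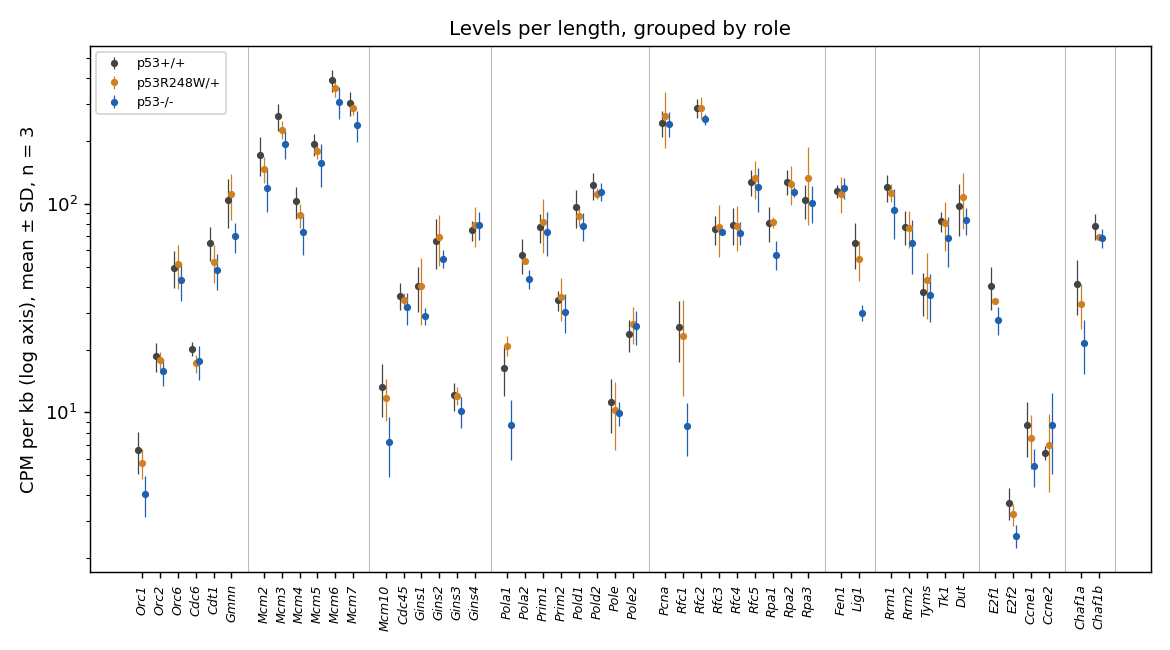
CPM per kb of gene length (log axis, mean ± SD of 3 libraries) of each of the 48 genes (x axis, by role) in p53+/+ (dark), p53R248W/+ (orange), and p53-/- (blue). Mcm6 is the highest and E2f2 the lowest. Most of the genes, among them Lig1, Rfc1, and Pola1, have p53-/- means below those of both other genotypes.

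Some counts may include reads of other genes. Of the 48 members, 14 share exon bases with another protein-coding gene in GENCODE M21, and the strand setting of the counting is not given in the sources used here. Pcna and Tyms also have named pseudogenes.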

How the data were processed

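RNA-seq libraries of LSKs were compared, 3 for each of 3 genotypes. The authors deposited raw whole-number read counts per gene and gene lengths. The submitters' processing notes list STAR 2.5.2b, featureCounts, Subread 1.5.0, edgeR, and mm10, and the annotation and strand setting are not given in the sources used here. The methods describe oligo(dT) selection with random hexamers and the labels a SMART-Seq v4 kit. The table also holds 9 columns of the authors' comparisons (fold changes with their tests), which were not used. The 2 ChIP-seq samples were not analysed here.

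Genotypes were tested with edgeR 4.0.16 (R 4.3.3; filterByExpr, TMM, 1 quasi-likelihood fit to 9 libraries, Benjamini-Hochberg over 12625 genes, threshold 0.05). TMM factors ran from 0.935 to 1.04, and total counts from 18021375 to 29750702. The SE is the log2 fold change divided by the root of F. The same comparisons were run with DESeq2 1.42.0, with limma-voom from limma 3.58.1, and with other scalings and filters, a replicate block, a Y-linked covariate, and each library left out. Tests were tested on simulated data. Genes named were all members past the threshold, the member with the smallest p in each other role, those of opposite sign, the 3 smallest p in each other comparison, and up to 3 genes for each further replication list past the threshold, with Trp53, Cdkn1a, and Mki67. Gmnn, Pcna, Chaf1b, and the remaining members given with values were chosen after their values were seen. The members, lists, and alternatives were chosen with earlier results of these data known. Figures were drawn with Python 3.11.15.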

Additional observations from a re-analysis of the deposited data

How the results depend on the processing

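In p53-/- against p53+/+, the count of members called lower was 2, with 5 by DESeq2 and with the length trend of each library removed (chosen after seeing the data), 1 by limma-voom, 3 with the Y-linked covariate (Gins1, Rfc1, and Lig1) and with only the 6 compared libraries fitted (Pola1, Rfc1, and Lig1), and 0 to 4 on leaving out a library. In p53R248W/+ against p53-/-, the count called higher was 1, with 3 by DESeq2 and with the length trend removed, 2 with at least 10 counts in every library, with the replicate block, and with the Y-linked covariate, and 0 to 3 on leaving out a library. In p53R248W/+ against p53+/+ it was 0 in all 19 alternatives, and members without overlap went from 1 to 0 with DESeq2's size factors. Over the alternatives, the members' median log2 fold change ran from -0.39 to -0.18, from 0.10 to 0.35, and from -0.16 to 0.03 in these comparisons, the last above 0 without p53+/+ replicate 3 (0.03) or p53R248W/+ replicate 3 (0.02). Signs reversed in p53-/- against p53+/+ for Gins4 (-0.0480 with the Y-linked covariate, and from -0.0459 to 0.166 on leaving out a library), Fen1 (-0.0586 with the covariate, and from -0.0290 to 0.124), and Pole2 (from -0.0172 to 0.278). The cause was not tested. Genes called over the whole table were 442 in p53-/- against p53+/+, 1552 by DESeq2, 1152 with the length trend removed, 894 in a fit to 6 libraries, and 37 to 1485 on leaving out a library. In p53R248W/+ against p53-/- they were 434, 1325, 880, 208, and 77 to 1559, and 183 with the Y-linked covariate.

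Deviations from the genotype means were correlated at 0.44, 0.59, and 0.04 between same-numbered p53+/+ and p53R248W/+ libraries. For replicates 1 and 2 the crossed pairs had -0.45 and -0.54. Deviations within a genotype cancel out, so the crossed pairs add no separate evidence. The library names of these same-numbered pairs share their endings, but the labels do not state shared handling. Both replicate 1 libraries held almost no Y-linked reads, while both replicate 2 libraries held them. Slopes of log2 CPM on gene length in p53+/+ and p53R248W/+ were -0.0327 and -0.232 for replicate 1, and 0.153 and 0.0884 for replicate 2. The cause was not tested. Same-numbered pairs with p53-/- libraries had -0.14 to 0.19. Pairing was therefore not taken as given. With the replicate block, 2, 0, and 2 members were called in p53-/- against p53+/+, p53R248W/+ against p53+/+, and p53R248W/+ against p53-/- (Pola1 and Rfc1), and 882, 2, and 672 genes in all. With 3 libraries for each genotype, log2 differences near the SE of 0.16 to 0.39 could not be resolved.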
